A study of Bos taurus with 8 samples.

Results

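A set of 10 genes that mark blood vessel endothelium was followed in cultures of bovine muscle cells. They are KDR, PECAM1, CDH5, VWF, TEK, TIE1, FLT1, ENG, EMCN, and ESAM. The 10 genes were given by name. The array files held no gene names, so probes were matched through their RefSeq accession, which named 8297 of the 21475 probes. Of the 10 genes, 7 had a matched probe among the 7788 genes named in this way, and 3 (PECAM1, CDH5, and VWF) had none. Probes for these 3 genes may exist under other accessions. Throughout, a gene is said to have a probe only where an accession matched. Each of the 7 genes had 1 matched probe, spotted 2 times on an array that carried 21475 probes. The probes were designed to the RefSeq transcripts NM_001110000 (KDR), NM_173964 (TEK), NM_173965 (TIE1), NM_001191132 (FLT1), NM_001076397 (ENG), NM_001076420 (EMCN), and NM_001078066 (ESAM).

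The RNA came from primary cultures of cells isolated from the semitendinosus muscle of bulls slaughtered at 15 months. The bulls were Limousin (LIM) or Hereford (HER), both bred for beef, or dairy Holstein-Friesian (HF), with 4 bulls per breed according to the methods of the study. No treatment was given, and the cells of every breed were taken while proliferating, at 80% confluence. Repeated preplating enriched the myoblasts without making a pure culture, so other cells of muscle tissue could be carried along. Each of 8 two-colour arrays set the RNA of 1 beef culture against the RNA of 1 HF culture, 4 for HER (Cy3) over HF (Cy5) and 4 for LIM (Cy5) over HF (Cy3). The HER arrays shared 1 slide and the LIM arrays another, so within a comparison the effects of breed, slide, and dye cannot be told apart. The 8 HF channels came from cultures of 4 HF bulls, and the sources used here do not tie a bull to an array. Both comparisons therefore share HF cultures, and no tie between them is taken as separate evidence.

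KDR and FLT1 are receptor tyrosine kinases for vascular endothelial growth factors (VEGF), where KDR carries most of the growth signal and FLT1 binds the ligand tightly and limits it. TEK (also called TIE2) is the receptor for angiopoietins, and TIE1 is its partner kinase. PECAM1, CDH5 (VE-cadherin), and ESAM join endothelial cells to each other, EMCN is a sialomucin of capillary and venous endothelium, VWF is the clotting glycoprotein stored by these cells, and ENG (CD105) is a co-receptor for ligands of the transforming growth factor beta family that is also found on stromal cells. In skeletal muscle, a dense capillary bed lies beside the fibers, and satellite cells sit close to it.

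The first question was whether these transcripts were present at all. A channel was counted as well above background when the scanner software gave its mark to every spot of the probe that was kept. KDR and ENG were well above background in 16 of 16 channels. TEK, TIE1, EMCN, and ESAM were well above background in 15 of 16 channels, and for each of these genes the missing channel was the HER channel of HER replicate 3. FLT1 was well above background in 0 of 16 channels. Over all probes on the array, 62.5% carried the mark in every channel and 16.2% in none. The share of marked probes was 64% to 82% in a beef channel and 70.4% to 74.5% in an HF channel, and the lowest share was that of HER replicate 3.

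The signal of the spots, before any correction, was set against the local background of the same colour. For KDR, the median spot signal was 4.78 to 69.5 times the local background in LIM channels, 4.15 to 45.7 times in HER channels, and 3.48 to 15.5 times in HF channels. For TEK, these ranges were 3.24 to 43.3, 1.92 to 17.7, and 1.68 to 7.01 times. For TIE1, they were 2.36 to 47.5, 2.35 to 31.5, and 2.28 to 3.96 times. In each of these genes the highest LIM and HER channels exceeded the highest HF channel. These values are not corrected for dye, and on every array the beef and HF channels had opposite dyes. They describe detection and not a difference between breeds. The junction protein ESAM was 2.4 to 90 times the local background in LIM channels, 1.91 to 57.3 times in HER channels, and 2.43 to 10.1 times in HF channels. EMCN was 1.78 to 66.8, 1.92 to 45.9, and 2.42 to 9.48 times. ENG was 42.1 to 435 times the local background in LIM channels, 60.9 to 268 times in HER channels, and 51 to 160 times in HF channels. In all, 6 of the 7 genes with a probe were measured in cultures of all 3 breeds.

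FLT1 stayed near the background in every culture. Its spot signal was 1.07 to 1.43 times the local background in LIM channels, 1.24 to 1.75 times in HER channels, and 1.27 to 1.74 times in HF channels. Of the 32 single spot marks of this probe (2 spots in 16 channels), 3 were given. With the milder mark for a signal that is positive and significant against background, FLT1 passed in 7 of 8 HF channels, 3 of 4 LIM channels, and 0 of 4 HER channels. No fold change is given for FLT1, since both sides of each ratio were near background. The probe bounds only the transcript it matches, and no statement is made about other FLT1 transcripts.

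Within each beef breed, the ratios of the 6 detected genes varied widely between arrays, and most genes had ratios on both sides of 0. All values below are log2 ratios of the beef culture over the HF culture on the same array, listed for replicates 1 to 4. KDR gave 3.32, -0.15, -2.40, and 1.51 on the HER arrays and -0.33, 2.54, 0.74, and 3.09 on the LIM arrays. The LIM values lay within the range of the HER values, and 5 of 8 arrays had more KDR in the beef culture. In bulk RNA, fewer cells of a type and less RNA per cell cannot be told apart, for KDR as for the genes that follow.

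The angiopoietin receptor pair behaved in a similar way. TEK gave 3.86, -0.42, -3.29, and 0.79 on the HER arrays and 0.63, 3.61, 0.87, and 3.83 on the LIM arrays. TIE1 gave 2.64, 1.23, -1.66, and 1.66 on the HER arrays and -0.69, 3.33, 1.54, and 2.59 on the LIM arrays. HER replicate 1, LIM replicate 2, and LIM replicate 4 were the 3 highest arrays for both kinases, and HER replicate 3 was the lowest.

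ESAM, the junction protein, had ratios of 3.81, 1.68, -3.90, and 3.28 on the HER arrays and -1.27, 4.06, 1.29, and 4.47 on the LIM arrays. On LIM replicate 4 this was 22.2-fold more in the LIM culture than in the HF culture. The HF signal on that array was only 3.33 times the local background, so the size of this fold is uncertain. On HER replicate 3 the HF signal was the higher one, while the HER signal of 1.91 times the local background was not well above it. The ratio of HER replicate 3 for ESAM, TEK, TIE1, and EMCN thus sets a measured HF signal against one that was not well above background, and its size is uncertain. Some channels that carried the mark were also dim. The LIM signal of EMCN on LIM replicate 1 was 1.78 times the local background, and the HF signal of TEK on HER replicate 1 was 1.68 times. The size of these ratios is uncertain as well.

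The glycoproteins EMCN and ENG differed in scale, and HER replicate 3 was the lowest array for both. EMCN gave 4.16, -0.50, -4.11, and 2.06 on the HER arrays and -1.95, 3.31, 0.89, and 4.20 on the LIM arrays. Its highest ratio was 18.4-fold on LIM replicate 4, where the HF signal was only 3.59 times the local background. ENG gave 1.13, -0.17, -1.35, and 0.66 on the HER arrays and -1.13, 1.00, -0.59, and 0.82 on the LIM arrays. ENG was higher in the beef culture on 4 of 8 arrays, and its ratios stayed within 2.55-fold in either direction.

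**Figure D1:**
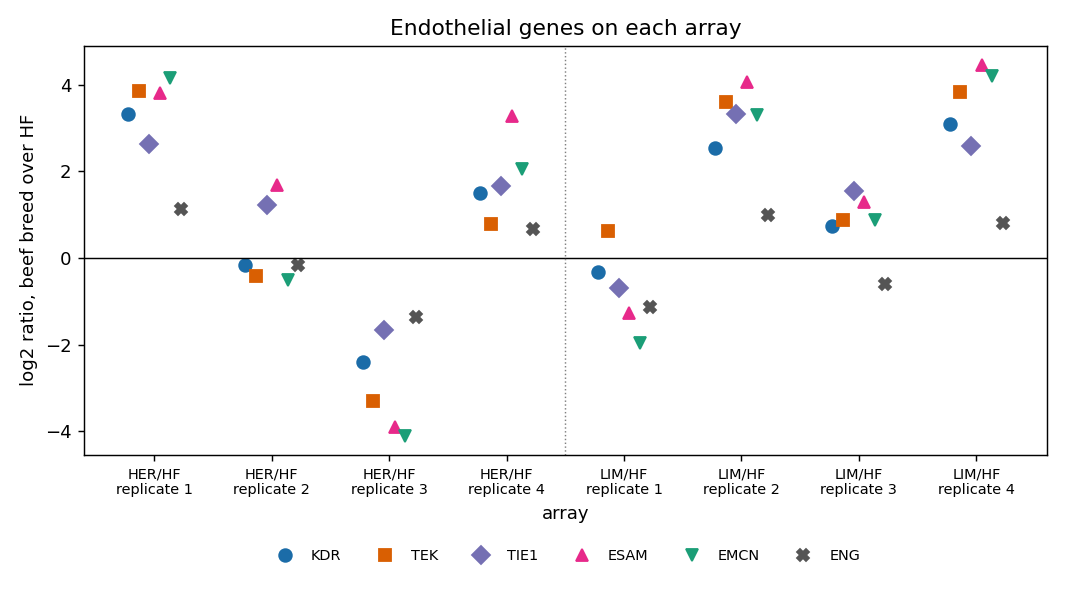
Log2 ratio of the beef culture over the HF culture (vertical axis) on each of the 8 arrays (horizontal axis) for the 6 genes that were well above background; each symbol is 1 gene. The genes move up and down together from array to array, from a mean of 3.16 on HER replicate 1 and 3.17 on LIM replicate 4 to -2.78 on HER replicate 3.

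The mean log2 ratio of the 6 genes was 3.16, 0.28, -2.78, and 1.66 on HER replicates 1 to 4 and -0.79, 2.98, 0.79, and 3.17 on LIM replicates 1 to 4. On HER replicates 1 and 4 and on LIM replicates 2 and 4, 6 of 6 genes were higher in the beef culture. On HER replicate 3, 6 of 6 genes were lower in the HER culture, and on LIM replicate 1, 5 of 6 genes were lower in the LIM culture, TEK being the exception. Each breed thus had cultures with high and with low ratios.

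Over the 8 arrays, the 15 pairs among the 6 genes had a Pearson r of 0.84 to 0.99 and a Spearman rho of 0.81 to 0.98. These values describe arrays that share HF cultures and carry no test. Without HER replicate 3 the range of r was 0.72 to 0.98. Without HER replicate 3 and LIM replicate 1, the arrays farthest from the median of the 6-gene mean, it was 0.79 to 1.00. Within the 4 LIM arrays r was 0.85 to 1.00, and within the 4 HER arrays it was 0.90 to 1.00. ENG and TEK made the least similar pair, at 0.84, and KDR and EMCN the most similar one, at 0.99.

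The spread between cultures was wide for this array. The SD of the log2 ratio within comparisons was 3.18 for EMCN, 3.13 for ESAM, 2.42 for TEK, 2.06 for KDR, and 1.07 for ENG. The median over the 16806 probes tested was 0.35, the 90th percentile 0.83, and the 99th percentile 1.87. EMCN and ESAM lay at the 99.9th percentile of all probes tested, TEK at 99.6, KDR at 99.2, TIE1 at 98.8, and ENG at 94.4.

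The channels show on which side of the arrays the spread arose. For this, a normalized log2 level was computed for each channel, with an offset that draws low values together, and levels were compared within a gene only, apart from the summed levels of the marker lists given further on. EMCN had a level of 6.23 to 10.50 in the LIM cultures, a 19.2-fold range, and of 6.56 to 10.17 in the HER cultures, a 12.2-fold range. In the HF channels it ranged from 6.95 to 8.51, or 2.94-fold. ESAM spanned 17.7-fold in LIM, 16.3-fold in HER, and 3.72-fold over all HF channels. The beef cultures thus varied more from each other than the HF cultures did for both genes.

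KDR spanned 8.17-fold in the LIM cultures, 7.63-fold in the HER cultures, and 3.11-fold over the HF channels. TEK spanned 7.46-, 5.36-, and 2.81-fold, and TIE1 10.4-, 8.12-, and 2.01-fold in the same order. ENG spanned 7.08-fold in LIM, 3.08-fold in HER, and 2.74-fold in HF. The difference in spread between breeds was not tested.

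The order of the mean levels was LIM, then HER, then HF for KDR, TEK, TIE1, EMCN, and ESAM. For EMCN, the mean level was 9.06 ± 1.96 (SD, n = 4) in LIM, 8.12 ± 1.63 (SD, n = 4) in HER, 7.54 ± 0.67 (SD, n = 4) in HF on the LIM slide, and 7.52 ± 0.64 (SD, n = 4) in HF on the HER slide. For KDR, it was 9.40 ± 1.43 in LIM, 8.54 ± 1.31 in HER, 8.08 ± 0.70 in HF on the LIM slide, and 7.98 ± 0.66 in HF on the HER slide (SD, n = 4 each). For ENG the means were 11.84 ± 1.25 in LIM, 11.84 ± 0.80 in HER, 11.77 ± 0.66 in HF on the LIM slide, and 11.71 ± 0.56 in HF on the HER slide (SD, n = 4 each). For all 6 genes the ranges of LIM and HF and of HER and HF overlapped, so no neighbours in this order were separated by more than their spread.

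**Figure D2:**
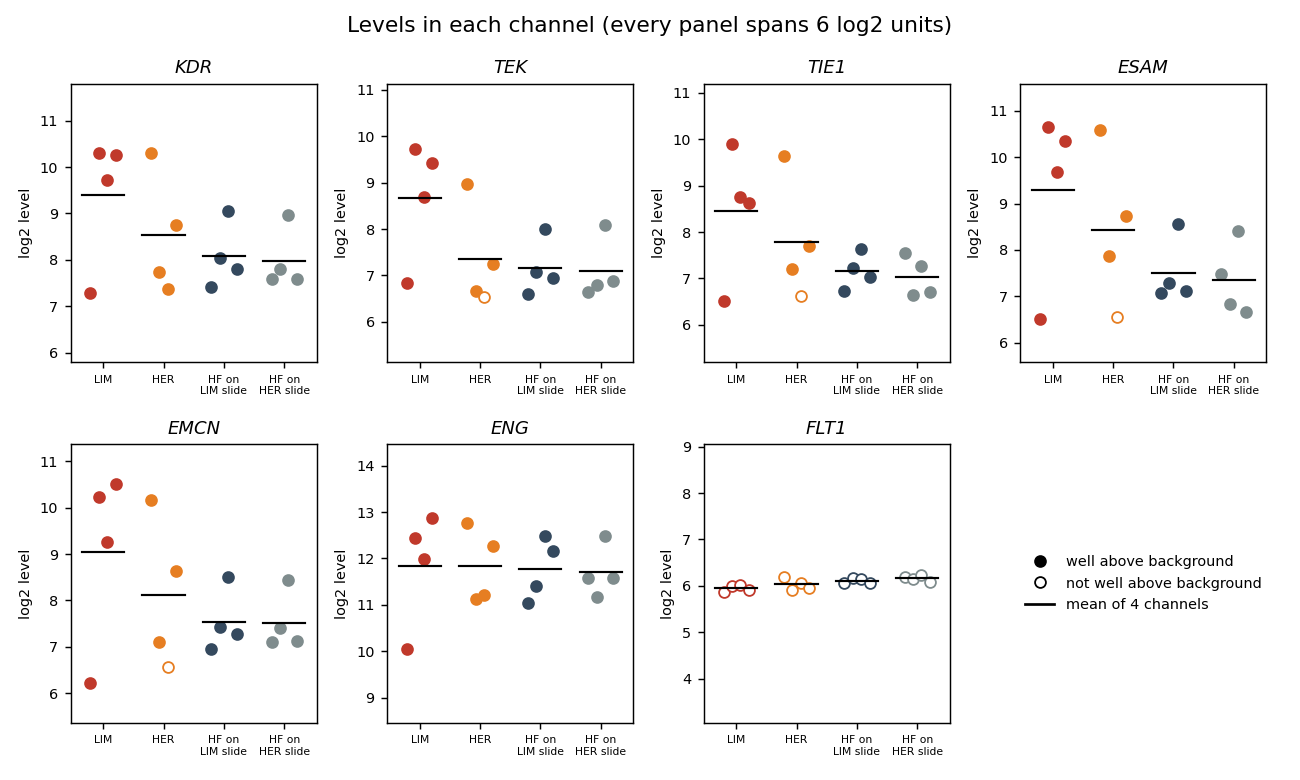
Normalized log2 level of 7 genes (1 panel each, every panel covering the same number of log2 units) in the LIM, HER, and HF channels; points are single channels in order of replicate number, open where not well above background, and lines are means of 4. For EMCN, 3 LIM and 2 HER cultures lie above the highest HF channel and 1 culture of each breed lies below the lowest, while FLT1 is open in all 16 channels.

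In EMCN, ESAM, and TIE1, 3 of 4 LIM cultures and 2 of 4 HER cultures lay above the highest HF channel. In KDR and TEK, 3 LIM cultures and 1 HER culture did so, and in ENG 1 of each. LIM replicate 1 was the lowest LIM culture for all 6 genes. HER replicate 1 was the highest HER culture for all 6.

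The HF cultures also differed from each other. The HF channel of array number 3 had a KDR level of 8.96 on the HER slide and 9.05 on the LIM slide, while the other HF channels lay between 7.42 and 8.03. For EMCN, number 3 had 8.45 and 8.51, and the others 6.95 to 7.43. HF number 3 was the highest HF channel on both slides for KDR, TEK, ENG, EMCN, and ESAM. For TIE1 it was the highest on the LIM slide at 7.64, but HF number 1 was the highest on the HER slide at 7.55. On HER replicate 3 this high HF channel met the lowest HER culture for KDR, TEK, EMCN, and ESAM, and the ratio was the lowest of all 8 arrays. On LIM replicate 3 it met a LIM culture with an EMCN level of 9.27, so the ratio was only 0.89 although the LIM level was above every HF level.

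HF channels with the same number had similar levels on both slides. The EMCN levels of same-numbered HF channels differed by at most 0.15 and the KDR levels by at most 0.23 on the log2 scale, although the dye was reversed. The widest gap was 0.82, for TIE1. The labels do not say that a number marks 1 HF bull, so this is a description of the data and not of the design.

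**Figure D3:**
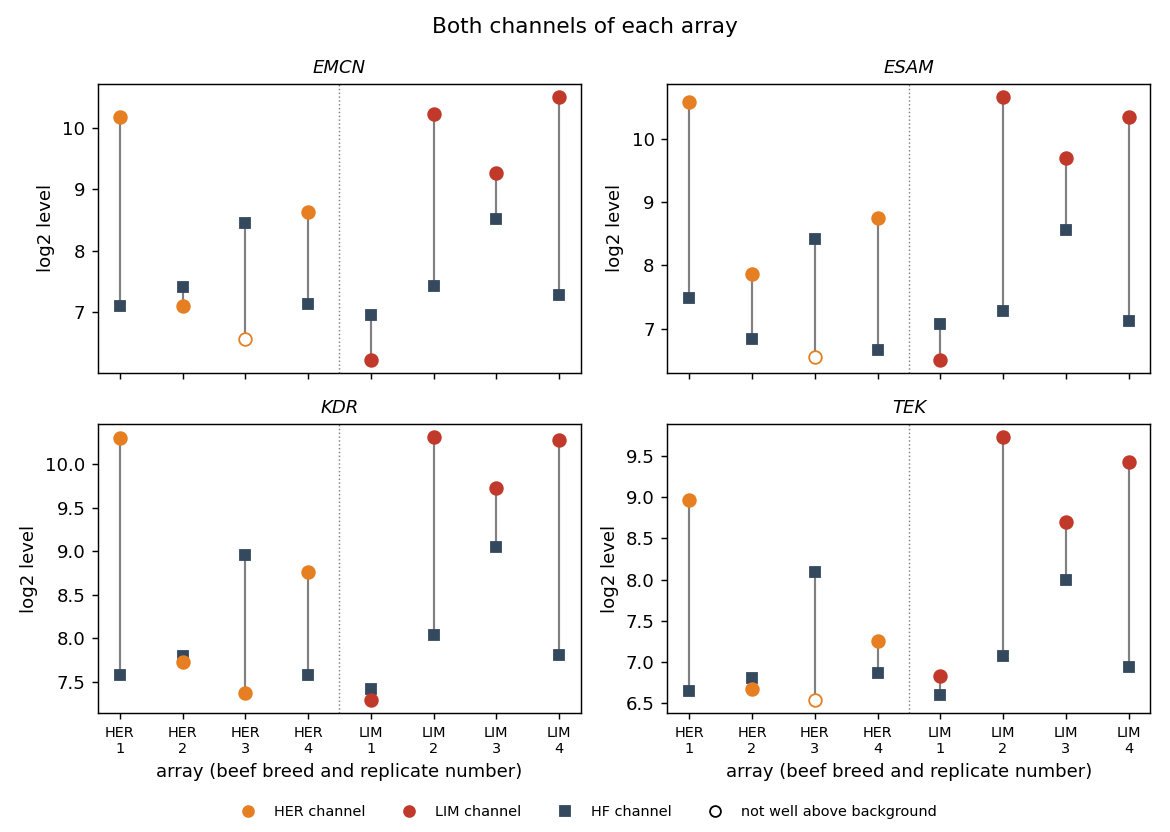
Normalized log2 level of EMCN, ESAM, KDR, and TEK in both channels of each array; circles are the beef culture (open where not well above background), squares the HF culture, and lines join the channels of 1 array. The HF squares of array number 3 are the highest on both slides (EMCN 8.45 and 8.51), and the beef circles run from 6.23 to 10.50 for EMCN.

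The design then asks whether each beef breed differed from HF. None of the 6 genes tested was called in any comparison when a call needed a limma p, adjusted by Benjamini-Hochberg, no higher than 0.05 together with a 1.3-fold change. For LIM vs HF, 0 of 6 genes were called, where 35.3% of the 16806 probes tested were. For HER vs HF, it was 0 of 6 genes against 25.4% of the probes. For the mean of both breeds, it was 0 of 6 genes against 38.9%. At the unadjusted limma p, 0 genes were called for LIM (42% of the probes), 0 for HER (35.2%), and 1, TIE1, for both breeds together (41.4%). The TIE1 call at the unadjusted p was lost with the replicate number as a block, and without any 1 of HER replicates 1, 2, and 4 or LIM replicates 2, 3, and 4. Without HER replicate 3, the unadjusted p called 3 genes in LIM, 2 in HER, and 4 for both together. Of the 16806 probes, it then called 7016, 5463, and 6936 in the same order. Without LIM replicate 1, it called 2 genes in LIM (6478 probes) and 2 for both together (6728 probes). Without HER replicate 1, it called 1 gene in LIM (6928 probes). The intervals of the means were wide, and the lack of a call does not show that the levels were equal.

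The mean log2 ratios were above 0 for all 6 genes in both comparisons, with a median of 1.65 in LIM and 0.49 in HER against -0.02 and -0.05 over all probes tested. In LIM, TEK had a mean log2 ratio of 2.23 (limma adjusted p = 0.119), a 4.71-fold mean difference with a 95% interval of -0.11 to 4.58 on the log2 scale. TEK was higher in the LIM culture on 4 of 4 arrays. ESAM had 2.14 with an SE of 1.33 (limma adjusted p = 0.235), TIE1 1.69 with an SE of 0.76 (limma adjusted p = 0.113), and KDR 1.51 with an SE of 0.87 (limma adjusted p = 0.204). Each of these 3 genes was higher on 3 of 4 LIM arrays. EMCN had 1.61 with an interval of -1.47 to 4.69, and ENG 0.02 with an interval of -1.02 to 1.07. Leaving out 1 LIM array moved the LIM mean of ESAM between 1.36 (without replicate 4) and 3.28 (without replicate 1).

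In HER, the mean log2 ratios were 1.22 for ESAM, 0.97 for TIE1, 0.57 for KDR, 0.40 for EMCN, 0.24 for TEK, and 0.07 for ENG, with limma adjusted p from 0.368 to 0.923. ESAM and TIE1 were higher on 3 of 4 HER arrays and the others on 2 of 4. These means rest on HER replicate 3 to a large degree. Without it, the HER mean was 2.92 for ESAM, 1.84 for TIE1, 1.56 for KDR, 1.91 for EMCN, 1.41 for TEK, and 0.54 for ENG, and 0 genes were called at the adjusted p. Without HER replicate 1, the mean was below 0 for KDR (-0.35), TEK (-0.97), ENG (-0.29), and EMCN (-0.85). Without HER replicate 4, the mean was also below 0 for ENG (-0.13) and EMCN (-0.15).

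For both beef breeds together, TIE1 had a mean log2 ratio of 1.33 with an SE of 0.54, or 2.52-fold, (limma adjusted p = 0.0705). It was higher on 6 of 8 arrays. ESAM had 1.68 (limma adjusted p = 0.167), TEK 1.23 (0.186), KDR 1.04 (0.191), EMCN 1.01 (0.403), and ENG 0.05 (0.914). This mean averages both dye orientations, but it counts 8 arrays as independent although they share HF bulls. Without HER replicate 3, 4 genes passed the adjusted limma test: TIE1 (1.77, adjusted p = 0.0169), ESAM (2.53, adjusted p = 0.0212), TEK (1.82, adjusted p = 0.0437), and KDR (1.54, adjusted p = 0.046). In that fit, 6303 of the 16806 probes tested were called for both breeds together. Without LIM replicate 1, TIE1 passed in LIM (2.49, limma adjusted p = 0.0417) and for both breeds together (1.73, limma adjusted p = 0.0243). The probes called in this second fit were 4618 in LIM and 6139 for both breeds together.

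**Figure D4:**
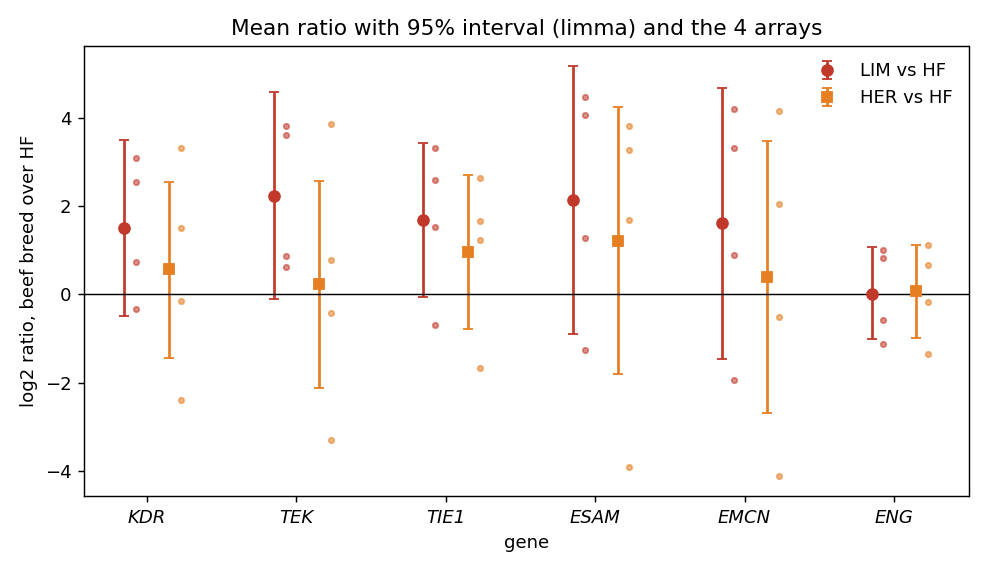
Mean log2 ratio of LIM over HF (circles) and HER over HF (squares) with its 95% interval from limma for 6 genes, and the 4 arrays of each comparison as small points. Every interval spans 0, from the widest for EMCN and ESAM to the narrowest for ENG.

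The difference between the breeds (LIM minus HER) was 2.00 for TEK, 1.21 for EMCN, 0.94 for KDR, 0.92 for ESAM, 0.73 for TIE1, and -0.05 for ENG on the log2 scale. None was called, with limma adjusted p from 0.577 to 0.984, where 0.0536% of all probes were called at the adjusted p and 13.6% at the unadjusted p (0 of the 6 genes). Without HER replicate 1, the unadjusted p called 1 of the 6 genes and 2746 of all probes tested. The interval for TEK ran from -1.32 to 5.32 and that for ENG from -1.53 to 1.44. This difference cannot be told apart from a slide or dye effect.

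The other genes of the vessel wall were described from 3 fixed lists. The first held ligands. Of 19 ligand genes, 13 had a probe, and at the adjusted p, 0 were higher and 1 lower in LIM and 0 higher and 2 lower in HER. Over all probes, 16.3% were called higher and 19% lower in LIM, and 11% higher and 14.4% lower in HER. APLN, the ligand of the apelin receptor, was the 1 ligand called in both breeds, with a log2 ratio of -0.90 in LIM (limma adjusted p = 0.00152) and of -0.79 in HER (limma adjusted p = 0.00605), and it was lower on 8 of 8 arrays. TGFB1, which signals through receptors that ENG assists, was the other one called in HER, at -0.76 (limma adjusted p = 0.0224), and had -0.50 in LIM, with lower values on 8 of 8 arrays. The growth factors VEGFA (-0.66 in LIM, -0.22 in HER) and VEGFC (-0.68 and -0.32), which bind KDR and its relatives, passed in neither.

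ANGPT2, DLL4, and ANGPT1 are named here after their values were seen. ANGPT2, an angiopoietin that endothelial cells themselves store and release to act on TEK, had log2 ratios of 4.00, 0.84, -3.05, and 2.10 on the HER arrays and -0.94, 5.21, 2.51, and 4.26 on the LIM arrays. DLL4, the Notch ligand of sprouting tip cells, reached 6.15 on LIM replicate 4 and -3.01 on HER replicate 3, but was well above background in only 7 of 16 channels. Both followed the mean of the 6 genes, with r of 0.98 and 0.97 over 8 arrays. ANGPT1, the angiopoietin made mainly by cells around the vessel, had an r of -0.57. It was well above background in 12 of 16 channels, and in only 5 of the 8 HF channels, so this r rests partly on dim signals.

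Of 31 partner receptors and junction genes, 16 had a probe and were well above background in all 16 channels. At the adjusted p, 2 were higher (F11R and TGFBR2) and 1 lower (S1PR1) in LIM, 0 were higher and 1 lower (CLDN5) in HER, and none was called in both. Among all probes tested, 35.3% were called in LIM and 25.4% in HER. TGFBR2, a receptor of transforming growth factor beta, had 0.87 in LIM (limma adjusted p = 0.0121), and in HER 0.64 (limma adjusted p = 0.0503), and was higher on 8 of 8 arrays. S1PR1, a sphingolipid receptor of vessel stability, had -0.87 in LIM (limma adjusted p = 0.00486) and -0.37 in HER (limma adjusted p = 0.126). F11R (JAM-A), a tight junction protein of endothelium, epithelium, and platelets, had a log2 ratio of 2.41 in LIM (limma adjusted p = 0.0224) and 1.57 in HER (limma adjusted p = 0.111). F11R followed the 6 genes with an r of 0.98. CLDN5, the main claudin of endothelium, did not, with an r of 0.28 and ratios of -0.06 in LIM and -0.57 in HER (limma adjusted p = 0.0138 for HER). The VEGF co-receptor NRP2 (0.03 in LIM, 0.08 in HER), the ENG partner receptor ACVRL1 (-0.14, -0.13), and TGFBR1 (-0.09, -0.46) were not called.

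Of these 3 lists, the other endothelial markers had the highest median r with the 6 genes. Of 41 genes, 22 had a probe and 21 were tested. ICAM1 and PROCR, an adhesion molecule induced by inflammation and the protein C receptor, were higher in LIM (2.31 and 1.29 on the log2 scale, limma adjusted p = 0.00718 and 0.0154), and 0 were called in HER. The share of all probes called was 35.3% in LIM and 25.4% in HER. The median log2 ratio of the list was 0.74 in LIM and 0.20 in HER. Of the 21 genes, 12 (57.1%) had an r above 0.9 with the mean ratio of the 6 genes, and the median r was 0.94. Among the 6590 named genes tested apart from the members, these 21 included, 112 (1.7%) had an r above 0.9 and the median was -0.06. These are correlations over 8 arrays that share HF cultures, given as a description.

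Transcription factors of the endothelial and blood lineages were among them. ERG had log2 ratios of 2.67, -0.41, -2.76, and 1.31 on the HER arrays and -1.23, 2.72, 0.47, and 2.78 on the LIM arrays (r of 1.00 with the 6-gene mean). SOX18, which acts in vessel and lymphatic development, reached 4.25 on LIM replicate 2 and -3.19 on HER replicate 3 (r of 0.99). FLI1 had an r of 0.98 at the brightest of its 3 probes, which did not all have the same sign of the mean ratio. CD34, a sialomucin of endothelial and progenitor cells, had an r of 0.99, and the guidance receptor ROBO4 one of 0.98. ERG, SOX18, and CD34 were picked for this description after their values were seen.

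Some genes of this list departed from the others. TAL1, a transcription factor of blood and vessel progenitors, had an r of 0.76 with ratios of 0.09 in LIM and -0.23 in HER, and PLAT, the tissue plasminogen activator, had -0.38. The selectins SELE and SELP, adhesion molecules of activated endothelium, followed the 6 genes with r of 0.96 and 0.85, yet their mean ratios were below 0 (-0.32 and -1.53 in LIM, -1.40 and -1.97 in HER). SELP was lower in the beef culture on 7 of 8 arrays and was called for both breeds together (-1.75, limma adjusted p = 0.0212). None of these 4 genes was called at the adjusted p in LIM or HER alone, and they were named after their values were seen, except TAL1.

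**Figure D5:**
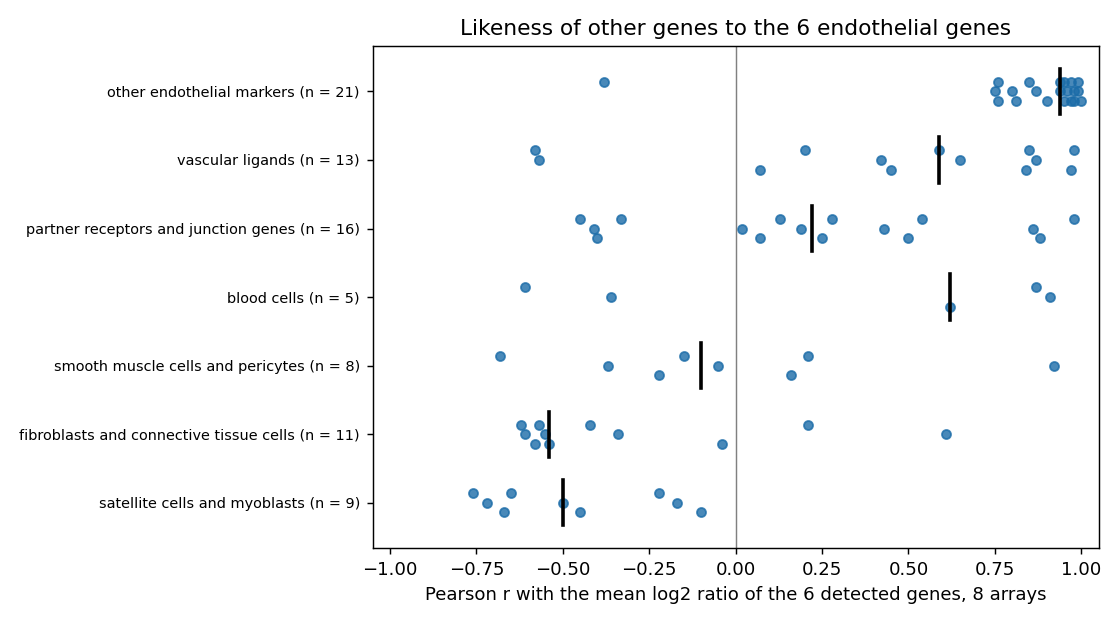
Pearson r over 8 arrays between the log2 ratio of each listed gene and the mean log2 ratio of the 6 detected genes (horizontal axis) for 7 fixed lists; points are genes and the black line is the median. The other endothelial markers have a median of 0.94, and all 9 myoblast markers lie below 0.

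The named genes whose ratios were most like a member were found among 6972 named probes. For KDR they were SFT2D1 (r of 0.995), EMCN (0.990), and ERG (0.989). SFT2D1 varied on a smaller scale, with an SD of the log2 ratio within comparisons of 0.28 against 2.06 for KDR. For TEK they were MERTK (0.991), GMFG (0.981), and SH2D3C (0.978). For TIE1 they were ADGRF5 (0.991), ROBO4 (0.990), and ASB9 (0.989). For ENG they were ARHGDIB (0.993), LRRC25 (0.977), and KLF6 (0.969). For EMCN they were FLI1 (0.995 and 0.993 at different probes) and ERG (0.995). For ESAM they were TBXAS1 (0.992), DLL4 (0.990), and EDN1 (0.987). Between 78 and 123 named probes had an r above 0.9 with a member, so the top ranks differ little.

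Markers of the other cells that muscle tissue holds were set beside these values. Of 12 markers of satellite cells and myoblasts, 9 had a probe, all were well above background in 16 of 16 channels, and 7 were higher in LIM and 7 in HER at the adjusted p. They included MYF5, MYOG, MYF6, DES, CDH15, ITGA7, and CHRNA1 in both breeds. The share of all probes called higher was 16.3% in LIM and 11% in HER. The summed level of the 9 probes was 25000 to 70000 in LIM, 32000 to 62400 in HER, and 9250 to 37300 in HF. All 9 had a negative r with the 6-gene mean, from -0.76 to -0.10, where 53.5% of all named genes were below 0. MYOD1, MYOG, MYF6, DES, CDH15, and CHRNA1 had higher log2 ratios on HER replicate 3 than on HER replicate 1 (MYOG 2.40 against 1.49). MYF5 (1.08 against 1.67), ITGA7 (1.45 against 1.89), and NCAM1 (0.99 against 1.11) were lower on HER replicate 3, where the endothelial genes were lowest.

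Of 12 fibroblast and connective tissue markers, 11 had a probe. At the adjusted p, 6 were higher and 2 lower in LIM, and 6 were higher and 1 lower in HER. Of all probes tested, 16.3% were called higher and 19% lower in LIM, and 11% higher and 14.4% lower in HER. COL1A1, COL1A2, COL3A1, LUM, and FN1 were higher and PDGFRA lower in both breeds. The sum was 351000 to 540000 in LIM, 362000 to 480000 in HER, and 188000 to 392000 in HF, and 9 of 11 had an r below 0. In every HF channel, VIM had the highest level of these markers. Of 13 smooth muscle and pericyte markers, 9 had a probe, 8 were tested, and 4 were higher in each breed, among them ACTA2, ANPEP, and DES in both. Their sum was 146000 to 302000 in LIM, 218000 to 276000 in HER, and 65300 to 170000 in HF. ACTA2 had the highest log2 level of this list in every channel, such as 15.43 in the HF channel of LIM replicate 3, where TAGLN had 13.84. DES counts in the myoblast sum as well, and RGS5 was well above background in 1 of 16 channels. A sum led by a single bright probe is no measure of the amount of a cell type. MCAM, which endothelial cells also carry, was the 1 gene of this list with an r above 0.9 (0.92).

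Of 13 blood cell markers, 9 had a probe and 5 were tested. ITGAM and SPN, which mark leukocytes, were above background in 0 channels, and AIF1 and CD3E in 1 each. At the adjusted p, 2 were higher and 1 lower in LIM, and 1 was higher and 1 lower in HER. Of all probes tested, 16.3% were called higher and 19% lower in LIM, and 11% higher and 14.4% lower in HER. CD68 was called higher and CD4 lower in both breeds. The CD68 probe was well above background in only 10 of 16 channels, with 4 HF and 2 HER channels among them. CD4 was read at 1 of its 2 probes, whose mean ratios differed in sign, and the other was not among those tested. CD14, present in 16 of 16 channels, had ratios of 0.08 in LIM and -0.06 in HER and an r of 0.91. The sum of the list was 9710 to 21400 in LIM, 19500 to 26000 in HER, and 24800 to 34700 in HF. The CD4 probe made up 90.6% or more of this sum in every channel. Without it, the sum of the other 8 probes was 773 to 1010 in LIM, 674 to 837 in HER, and 706 to 811 in HF. The sum of the 14 endothelial markers with a probe was 2850 to 35800 in LIM, 4030 to 28200 in HER, and 4430 to 13200 in HF. What part any of these cell types had in the ratios of the 6 genes was not tested.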

How the data were processed

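RNA of 4 LIM, 4 HER, and HF cultures was measured on 8 two-colour Agilent arrays, grouped by breed and dye from the sample labels. The authors deposited the output of Feature Extraction 10.7.3.1 for each array. Per the file headers, it holds the median intensity of each spot and its local background in both colors, marks for spots above background, and the log10 of Cy5 over Cy3, which the software had corrected for background and dye. The deposited series table repeats these log10 values (largest difference 0). The build in the headers and that of the reference table (ARS-UCD2.0), used for names only, differ, so no coordinates are given.

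Ratios were turned to log2 beef breed over HF. Control spots and 6 to 130 outlying spots per array were left out, and spots of a probe were averaged. A probe was tested if the well above background mark was set in 4 or more of the 16 channels, which held for 16806 of 21475. The comparisons LIM vs HF, HER vs HF, their mean, and their difference were fitted together with limma 3.58.1 (R 4.3.3). Levels were computed from the intensities (normexp with an offset of 50, marked local backgrounds replaced by the array median, loess, Aquantile). The limma fit was tested on simulated ratios, with noise drawn independently for each probe and array. That simulation held no shared HF cultures, so it does not cover this feature of the design. No spot was saturated. The number of arrays, 4 per comparison, sets the precision. p-values measure the spread between arrays, and HF bulls recur across arrays.

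Named were all members, listed genes called in both breeds (at most 8 a list) or, with fewer than 3, the best detected up to 3 in list order, and the 3 named probes most like each member. Other genes named, such as F11R, TGFBR2, S1PR1, CLDN5, ICAM1, PROCR, and TGFB1, were named after their values were seen. For genes with several probes, the brightest was used. The members and lists were chosen with earlier results of these data known. Alternatives covered background, normalization, the series table, filter, test, weights, thresholds, replicate block, and leaving out each array.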

Additional observations from a re-analysis of the deposited data

Results flagged for a closer look

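Of 36 groups of 4 values (ratios and levels of the 6 detected genes by breed and slide), 3 held a value far from the other 3, where chance gives about 1 in 20. All were HF channels of array number 3. On the HER slide, the KDR level was 8.96 against 7.58 to 7.80 in the other HF channels, and the TEK level was 8.09 against 6.65 to 6.87. On the LIM slide, the ESAM level was 8.56 against 7.07 to 7.28. Genes of these cultures move together and HF channels of the same number had similar levels on both slides, so the 3 values are not independent of each other.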

How the results depend on the processing

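No gene was called at the adjusted p in any comparison with the settings of the report, so each count below is against 0. For both breeds together, 1 gene was called with normexp and local backgrounds as measured (TEK, 0.98), with marked backgrounds replaced (TIE1, 1.03 on the log2 scale), and with no background correction (TIE1, 1.14), and 1 at the unadjusted p (TIE1, 1.33). Of 16806 probes, these settings called 3329, 4524, 5025, and 6962. With no filter on dim probes, FLT1 entered although it was near background in all channels, and 1 gene was called in LIM and 1 for both breeds together. Of 21473 probes, 6058 were then called in LIM and 6565 for both breeds together. With the milder detection mark, 6 genes passed in all 16 channels in place of 2. With array weights, signs turned for ENG in LIM (-0.13), in HER (-0.07), and together (-0.10), and for TEK (-0.16) and EMCN (-0.06) in HER, none of them called. Scaling between arrays, the methods' t-test, separate fits, and the test with no fold change limit gave 0 calls. Centring arrays on their median and the series table could not change a call. The array medians were already 0, and the series table repeats the ratios used. The mean over probes of a gene gave nothing new, since each had 1 matched probe, and probes under other accessions were not looked at.

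Leaving out 1 array at a time gave 0 to 1 calls in LIM, 0 in HER, and 0 for the difference. For both breeds together it gave 0 to 4 (4 without HER replicate 3, where 6303 of 16806 probes were called). The mean log2 ratio then ran in HER from -0.35 to 1.56 for KDR, -0.97 to 1.41 for TEK, -0.29 to 0.54 for ENG, and -0.85 to 1.91 for EMCN. For ENG it ran from -0.30 to 0.41 in LIM and from -0.13 to 0.28 together. None of the following means was called with all arrays. In LIM they ran from 0.98 to 2.13 for KDR, 1.70 to 2.77 for TEK, and 1.15 to 2.49 for TIE1 (highest without LIM replicate 1), and from 0.75 to 2.80 for EMCN (without LIM replicates 4 and 1). For both breeds together they ran from 0.58 to 1.54 for KDR, 0.63 to 1.82 for TEK, 0.38 to 1.76 for EMCN, and 1.25 to 2.53 for ESAM (lowest without HER replicate 1, highest without HER replicate 3). LIM minus HER ran from -0.05 to 1.86 for KDR, -0.15 to 1.52 for TIE1, -0.52 to 0.34 for ENG, -0.30 to 2.46 for EMCN, and -0.78 to 2.06 for ESAM.

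With the replicate block, 0 genes were called in each comparison, and TIE1 for both breeds together had an adjusted p of 0.0872, and, in a fit added after seeing the data, an unadjusted p of 0.0509 (0 calls). Over all probes the replicate block moved the calls from 5929 to 6253 in LIM and from 4264 to 4315 in HER. Deviations of the ratios of same-numbered arrays had r of -0.25, 0.14, 0.31, and 0.56 over the probes tested. These ratios also hold beef cultures of different breeds, so their r cannot decide whether an HF culture is shared. The HF levels of same-numbered arrays deviated together (0.75 to 0.90, against -0.53 to 0.12 for other pairs). The main fit did not use the numbers as pairs, and the fit with the replicate block did. Only 4 arrays per comparison and an HER replicate 3 with signals near background limit what these ratios can show.

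Over all probes, limma calls at the adjusted p moved by more than 1.5 times in these cases. With normexp and local backgrounds as measured they were 0 in HER (1757 at the unadjusted p) against 4264, and 3329 against 6535 for both breeds together. The methods' t-test after Benjamini-Hochberg gave 1114 in LIM and 2 in HER against 5929 and 4264. Leaving out 1 HER array gave as few as 1580 in HER, and without LIM replicate 3 there were 3776 in LIM. The 9 calls for the difference became 0 to 2 with the other background corrections, the strictest filter, and each array left out, 1 with the replicate block, 76 with no filter, and 169 with array weights.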
